A study of Mus musculus with 46 samples.

Results

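The genes described here are 6 members of the interleukin 1 system: the cytokine Il1b, the receptor antagonist Il1rn, the signalling receptor Il1r1, Il1rl1, the receptor of Il33, the shared co-receptor Il1rap and the processing protease Casp1. They were taken as all probe sets that the platform annotation assigns to 1 of these symbols only. That rule found 9 probe sets for 5 of the 6 genes, out of 22626 probe sets and 12393 genes used: 1 each for Il1b, Il1r1 and Casp1, and 3 each for Il1rn and Il1rap. The annotation used lists no probe set for Il1rl1, which is not analysed here.

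Male mice of the strains C57BL/6J (C57) and MRL/MpJ (MRL), 15 to 20 weeks old, had the left coronary artery tied off and were killed on day 1 or day 5, while day 0 hearts came from mice without any operation. The effects of infarction and of anaesthesia, chest surgery and analgesia cannot be told apart, since day 0 differs from the later days in all of them. From the left ventricle 2 pieces were punched out, the infarct with its border and the noninfarct remainder; on day 0 the word infarct names the anterior-apical region where an infarct would form. The 12 groups of strain, day and region hold 46 arrays, 4 per group and 3 in each C57 day 0 group, called biological replicates in the labels, which tie no infarct array to the noninfarct array of its heart.

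Interleukin 1 beta is made mainly by myeloid cells as an inactive precursor that caspase 1, activated on inflammasomes, cuts into the secreted cytokine. The cytokine binds Il1r1, which recruits Il1rap and passes the signal through Myd88 to NF-kappa B; the antagonist Il1rn occupies Il1r1 without signalling, and the decoy Il1r2 binds the cytokine without passing a signal. In the infarcted heart interleukin 1 is known as an early inflammatory signal that calls in leukocytes. RNA levels say nothing of precursor cleavage, secretion or receptor binding.

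In the RefSeq gene order the family lies in clusters: Il1r2, Il1r1, Il1rl2, Il1rl1, Il18r1 and Il18rap follow each other on chromosome 1, Il1a precedes Il1b on chromosome 2, and Casp1 lies before Casp4 and Casp12 on chromosome 9. The upstream sequences of Il1b, Casp1 and Il1r1 are printed because these 3 genes rose in infarct tissue of both strains, at different times. They are the 250 bases before each RefSeq start site (assembly GRCm38.p6), 5′ to 3′ on the gene's strand, with motif matches in capitals.
Il1b, chr2:129371140-129371389, minus strand: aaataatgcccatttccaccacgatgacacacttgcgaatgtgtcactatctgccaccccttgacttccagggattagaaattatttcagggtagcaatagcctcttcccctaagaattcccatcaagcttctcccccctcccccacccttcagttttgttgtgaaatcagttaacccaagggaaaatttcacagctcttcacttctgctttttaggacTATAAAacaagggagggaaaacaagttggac
Casp1, chr9:5298267-5298516, plus strand: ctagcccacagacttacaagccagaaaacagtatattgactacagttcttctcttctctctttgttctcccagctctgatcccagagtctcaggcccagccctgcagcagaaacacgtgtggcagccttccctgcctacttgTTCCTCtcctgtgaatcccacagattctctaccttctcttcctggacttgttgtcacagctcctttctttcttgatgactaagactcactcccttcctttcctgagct
Il1r1 start site 1, chr1:40224830-40225079, plus strand: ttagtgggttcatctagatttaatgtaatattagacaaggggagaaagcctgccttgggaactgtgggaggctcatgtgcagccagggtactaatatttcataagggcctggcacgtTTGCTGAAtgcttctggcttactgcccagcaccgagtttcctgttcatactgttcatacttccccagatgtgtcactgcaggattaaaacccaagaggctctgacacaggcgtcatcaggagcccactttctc
Il1r1 start site 2, chr1:40266336-40266585, plus strand: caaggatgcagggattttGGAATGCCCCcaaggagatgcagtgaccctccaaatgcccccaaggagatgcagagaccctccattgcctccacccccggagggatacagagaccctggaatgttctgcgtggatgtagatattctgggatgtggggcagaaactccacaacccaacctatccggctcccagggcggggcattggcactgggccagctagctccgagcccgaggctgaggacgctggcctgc

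The motifs searched on both strands were the NF-kappa B consensus, the PU.1 core GAGGAA, the C/EBP form TTGCNNAA, the AP-1 form TGANTCA and the TATA box TATAAA. In the Il1b promoter the capitals mark a TATA box at -31 to -26 from the start, a motif that 12.3% of 32536 promoters held within the same 250 bases. The Casp1 capitals mark a PU.1 core on the minus strand at -108 to -103, found in 23.4% of promoters. At Il1r1 they mark a C/EBP form at start site 1 (-133 to -126; 9.57% of promoters) and, at start site 2, an NF-kappa B consensus on the minus strand (-232 to -223; 7.28% of promoters). An AP-1 form, found in 6.73% of promoters, lay upstream of Il1rn start site 1 at -141 to -135. These matches describe letters, not binding.

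Each array gives 1 intensity per probe set, on a linear scale as deposited, used here as log2. Array medians lay between 4.22 and 4.48 on that scale, and values below them are close to background, so that the size of a change from such a level is not exact. Il1r1 was above the array median on 46 of 46 arrays, Il1b on 23, Casp1 on 6 and the Il1rn probe sets 1423017_a_at, 1451798_at and 1425663_at on 5, 3 and 0. Of the 3 Il1rap probe sets, 1421843_at (2.58 to 3.39) and 1449585_at (2.85 to 3.79) were never above it, and 1421844_at (2.89 to 4.44) was on 1 array. A probe set was tested where it exceeded the array median on at least 3 arrays of a fit, so 5 of the 9 were tested in infarct tissue and between regions (Il1b, Il1r1, Casp1, Il1rn 1423017_a_at and Il1rn 1451798_at) and 2 in noninfarct tissue (Il1b and Il1r1). All 6 Casp1 arrays above the median were infarct arrays of day 5, and the 5 and 3 Il1rn arrays were MRL infarct arrays of days 1 and 5, so these 3 probe sets entered the tests through the very groups where they were high, and their calls are no independent evidence of a change. Il1b entered the infarct fit in the same way. There it was above the median on 0 day 0 arrays, on 4 and 4 C57 arrays of days 1 and 5, and on 4 and 1 in MRL. Its infarct calls over days are no independent evidence either. A difference was called at a limma adjusted p under 0.05, over all probe sets tested.

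The labelled tissue was checked against its markers: all 7 cardiomyocyte markers (such as Myh6 and Tnnt2) lay above the median on 46 of 46 arrays. Of the arrays, 2 stood apart on day 5. C57 noninfarct replicate 3 had a macrophage marker sum of 23760 and MRL infarct replicate 3 one of 5256, against 3933 to 11160 and 26680 to 32400 on the other 3 arrays of their groups. Both are kept under their labels, and results that turn on them are also given without them.

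Il1b rose at the infarct within 1 day in both strains and was close to its starting level by day 5 in MRL but not in every C57 heart. In C57 infarct tissue its log2 intensity was 4.12, 4.19 and 4.06 on day 0, 7.54, 7.93, 8.35 and 7.43 on day 1, and 5.74, 5.49, 4.73 and 8.24 on day 5. In MRL it was 4.17, 4.20, 3.65 and 4.08 on day 0, 5.74, 7.11, 9.88 and 8.63 on day 1, and 3.98, 4.16, 4.01 and 4.81 on day 5. Every day 1 array exceeded every day 0 array, and 1 C57 day 5 array, replicate 4, stood within the day 1 range. The MRL day 1 arrays held both the lowest and the highest day 1 value, with an SD of 1.80 against 0.42 in C57 (n = 4 each).

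The rise of Il1b from day 0 to day 1 was 3.68 ± 0.72 (log2 ± SE) in C57, a 12.8-fold difference, and 3.82 ± 0.66 in MRL, 14.1-fold (limma adjusted p 0.0015 and 0.00051). Both calls held without any single array. In bulk tissue, fewer cells of a type and less RNA per cell cannot be told apart, here and below. From day 1 to day 5 Il1b fell by 3.60 in MRL (SE 0.66, adjusted p 0.00052), with no overlap of the groups. In C57 it fell by 1.76 (SE 0.66, adjusted p 0.045), and the groups overlapped through replicate 4. That call ended without any one of C57 day 0 replicates 1 to 3, day 1 replicates 1 to 4 or day 5 replicates 1 to 3, MRL day 0 replicates 1 to 4 or MRL day 5 replicates 1 and 2 (adjusted p 0.051 to 0.15). On day 5 C57 infarct tissue still held more Il1b than on day 0, by 1.92 ± 0.72 (adjusted p 0.036), whereas the MRL difference of 0.22 ± 0.66 was not called (adjusted p 0.81). The C57 call ended without any one of its day 0 arrays (adjusted p 0.075 to 0.084) and without day 5 replicate 4, where the difference was 1.19 (adjusted p 0.15); with the replicate number as a block it was 1.71 (adjusted p 0.061).

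**Figure D1:**
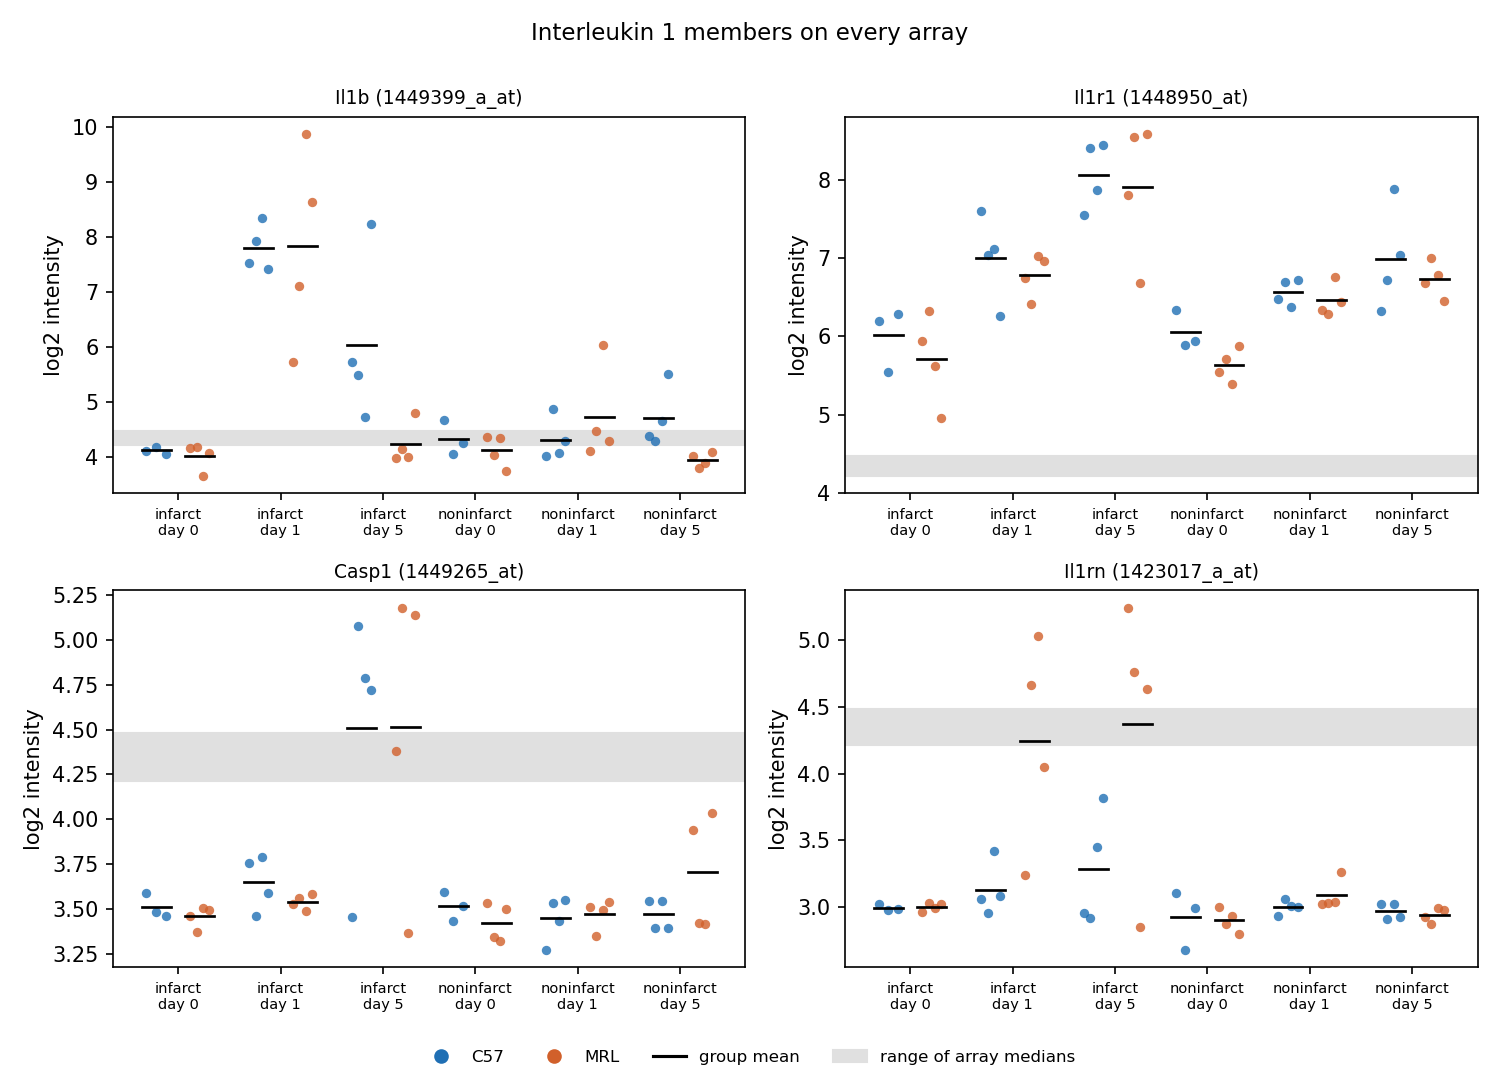
Log2 intensity (vertical axis) of 4 member probe sets on each array, by region and day (horizontal axis), C57 in blue and MRL in orange; black bars are group means and the grey band spans the array medians. Il1b peaks in infarct tissue on day 1, Il1r1 and Casp1 are highest there on day 5, and the Il1rn probe set 1423017_a_at exceeds 4 on infarct arrays of MRL only.

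Il1r1, the receptor through which interleukin 1 signals, was highest on day 5, when its ligand had fallen, and rose in both regions. In C57 infarct tissue its log2 intensity was 6.20, 5.54 and 6.29 on day 0, 7.61, 7.04, 7.12 and 6.26 on day 1, and 7.54, 8.40, 7.86 and 8.44 on day 5. In MRL it was 5.94, 6.32, 5.62 and 4.96 on day 0, 6.74, 6.41, 7.02 and 6.96 on day 1, and 7.80, 8.54, 6.68 and 8.58 on day 5. All day 5 arrays exceeded all day 0 arrays of their strain, and the lowest MRL day 5 value belongs to replicate 3, which stands apart.

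From day 0 to day 5 Il1r1 rose by 2.05 ± 0.41 in C57 and 2.19 ± 0.38 in MRL (limma adjusted p 0.00065 and 0.00013), 4.14-fold and 4.56-fold, and both calls held without any single array. By day 1 it was higher by 1.07 ± 0.38 in MRL (adjusted p 0.047), and by 0.99 ± 0.41 in C57, which was not called (adjusted p 0.1) but was without MRL day 5 infarct replicate 3 (adjusted p 0.041). The MRL call ended without any one of 15 arrays: MRL day 0 replicates 1, 3 and 4, MRL day 1 replicates 1 to 4, MRL day 5 replicate 1, C57 day 0 replicates 1 to 3, C57 day 1 replicate 2 and C57 day 5 replicates 2 to 4 (adjusted p 0.05 to 0.16), and with the replicate block (adjusted p 0.065). From day 1 to day 5 the rise was 1.06 ± 0.38 in C57 and 1.12 ± 0.38 in MRL (adjusted p 0.035 and 0.031). The first of these ended without any one of C57 day 1 replicates 2 and 4 or day 5 replicates 2 to 4 (adjusted p 0.051 to 0.12), the other when any one of MRL day 1 replicates 1 and 2 or day 5 replicates 1, 2 and 4 was left out (adjusted p 0.052 to 0.11).

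Casp1, the protease that activates the Il1b precursor, was at background on days 0 and 1 and higher on most infarct arrays of day 5. Its C57 infarct values were 3.59, 3.48 and 3.46 on day 0, 3.76, 3.46, 3.79 and 3.59 on day 1, and 3.46, 5.08, 4.79 and 4.72 on day 5. In MRL they were 3.46, 3.37, 3.51 and 3.50 on day 0, 3.53, 3.56, 3.49 and 3.58 on day 1, and 4.38, 5.18, 3.37 and 5.14 on day 5. In each strain 3 day 5 arrays exceeded every earlier array, and 1 stayed at the day 0 level, C57 replicate 1 and MRL replicate 3.

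Casp1 rose from day 0 to day 5 by 1.00 ± 0.35 in C57 and 1.06 ± 0.32 in MRL (limma adjusted p 0.025 and 0.01), about 2-fold, and from day 1 to day 5 by 0.86 ± 0.32 and 0.98 ± 0.32 (adjusted p 0.042 and 0.027). The day 0 to day 5 call ended in C57 without any one of day 0 replicates 1 to 3 or day 5 replicates 2 to 4 (adjusted p 0.051 to 0.088), and in MRL without day 5 replicate 2 (adjusted p 0.05). The day 1 to day 5 call ended in C57 without any one of day 1 replicates 1, 2 and 4, day 5 replicates 2 to 4, day 0 replicate 2 or MRL day 0 replicates 1 to 4 (adjusted p 0.05 to 0.15). The MRL one was lost when any one of day 1 replicates 3 and 4 or day 5 replicates 2 and 4 was left out (adjusted p 0.052 to 0.1). At day 1 no Casp1 change was called, with 0.14 ± 0.35 in C57 and 0.08 ± 0.32 in MRL.

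The antagonist Il1rn was higher after infarction in MRL infarct tissue, while no C57 change was called. Probe set 1423017_a_at read 2.97, 3.03, 3.00 and 3.02 on MRL day 0, 3.24, 4.66, 5.03 and 4.05 on day 1, and 5.24, 4.76, 2.85 and 4.63 on day 5. In C57 it read 3.03, 2.98 and 2.98 on day 0, 3.06, 2.96, 3.42 and 3.09 on day 1, and 2.96, 2.92, 3.45 and 3.82 on day 5. All 4 MRL day 1 arrays and 3 of the 4 day 5 arrays exceeded every MRL day 0 array, and the exception was day 5 replicate 3.

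For Il1rn 1423017_a_at the MRL change was 1.24 ± 0.39 by day 1 and 1.37 ± 0.39 by day 5 (limma adjusted p 0.028 and 0.0067). The C57 changes were 0.14 ± 0.42 and 0.29 ± 0.42 (adjusted p 0.87 and 0.6). The MRL day 1 call ended without any one of MRL day 0 replicates 1 to 4 or day 1 replicates 2 and 3 (adjusted p 0.054 to 0.09) and with no filter on low values (adjusted p 0.055), and the day 5 call held without any single array. The probe set 1451798_at, also of Il1rn, read 3.36, 3.14, 6.06 and 3.40 on MRL day 1 and 6.18, 4.66, 2.54 and 3.77 on day 5, against 2.54 to 2.70 on day 0. Its MRL change was called on day 5 (1.65 ± 0.57, adjusted p 0.023) and not on day 1 (1.35 ± 0.57, adjusted p 0.094; 0.044 without the day 5 array that stands apart), and its C57 changes were 0.26 and 0.09. The Il1rn probe set 1425663_at stayed between 3.05 and 3.95 on all arrays, so the 3 probe sets of this gene disagree.

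Over infarct tissue the 5 tested member probe sets gave 17 calls in 30 tests. By comparison, 1 was called for C57 from day 0 to day 1, where 15.5% of all tested probe sets were called, and 3 for MRL (background 21.5%). From day 0 to day 5 it was 3 in C57 (background 42.7%) and 4 in MRL (background 46.9%). From day 1 to day 5 it was 3 in C57 (34.2%) and 3 in MRL (30.1%), each time 2 higher and Il1b lower. With so many genes changed by day 5, a share of this kind is not particular to the members.

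In noninfarct tissue 2 of 12 tests were called, both for Il1r1 from day 0 to day 5. Il1r1 read 6.33, 5.89 and 5.94 in C57 on day 0 and 6.33, 6.73, 7.89 and 7.04 on day 5, and in MRL 5.55, 5.71, 5.39 and 5.88 on day 0 and 6.68, 7.00, 6.78 and 6.46 on day 5. The groups did not overlap in MRL, and in C57 day 5 replicate 1 lay within the day 0 range while the highest value was that of replicate 3, which stands apart. The rise was 0.94 ± 0.25 in C57 and 1.10 ± 0.23 in MRL (limma adjusted p 0.014 and 0.0019). The C57 call ended without day 0 replicates 2 or 3 (adjusted p 0.062 and 0.058).

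Read against the background, 1 of the 2 tested noninfarct probe sets was called from day 0 to day 5 in C57 (background 21.1%) and in MRL (24.2%). None of the 2 was called from day 0 to day 1 in C57 (3.99%) or MRL (0.98%), or from day 1 to day 5 in C57 (22.4%) or MRL (12%). Noninfarct Il1r1 on day 1 exceeded day 0 on every MRL array, by 0.83 ± 0.23 (adjusted p 0.091), and without C57 day 5 noninfarct replicate 3 this difference was called (adjusted p 0.011). Noninfarct Il1b stayed between 3.74 and 4.89 on all but 2 of the 23 arrays, which were MRL day 1 replicate 3 at 6.04 and C57 day 5 replicate 4 at 5.51. The noninfarct macrophage marker sum, the summed linear intensity of 11 genes, was 1686 to 2089 on day 0 and 3933 to 23760 on day 5 in C57, and 1352 to 1528 and 8893 to 10680 in MRL; its part in the Il1r1 rise was not tested.

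Between the regions 9 of 30 tests were called, all higher in infarct tissue, in a fit that takes the 46 arrays as separate samples. On day 1 it was Il1b, higher by 3.49 ± 0.55 in C57 and 3.11 ± 0.55 in MRL (limma adjusted p 7.4e-05 and 0.00087), 11.2-fold and 8.64-fold; these calls held without any single array. Noninfarct Il1b on day 1 read 4.02, 4.89, 4.08 and 4.30 in C57 and 4.12, 4.47, 6.04 and 4.30 in MRL, so that in MRL 1 noninfarct array exceeded the lowest infarct array. Il1rn 1423017_a_at was higher in MRL infarct tissue on day 1 by 1.15 ± 0.29 and on day 5 by 1.43 ± 0.29 (adjusted p 0.013 and 0.0035), and Il1rn 1451798_at on day 5 by 1.66 ± 0.44 (adjusted p 0.014). On day 1 Il1rn 1451798_at was called without the arrays that stand apart (1.27, adjusted p 0.017) and not with them (adjusted p 0.06). The day 1 call of Il1rn ended without MRL infarct replicates 2 or 3 (adjusted p 0.066 and 0.051).

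On day 5 Il1r1 was higher at the infarct by 1.07 ± 0.32 in C57 and 1.17 ± 0.32 in MRL (limma adjusted p 0.038 and 0.016). Casp1 was higher by 1.04 ± 0.25 and 0.81 ± 0.25 (adjusted p 0.012 and 0.026). The Il1r1 calls ended without any one of C57 infarct replicates 2 to 4 or noninfarct replicates 1, 2 and 4 (adjusted p 0.065 to 0.25), and without any one of MRL infarct replicates 2 and 4 or noninfarct replicate 4 (0.053 to 0.1). The Casp1 calls ended without any one of C57 infarct replicates 2 to 4 (0.053 to 0.1), and without any one of MRL infarct replicates 1, 2 and 4 or noninfarct replicates 2 and 3 (0.064 to 0.17). Of 5 tested probe sets, 1 was called on day 1 in C57 (background 7.31%) and 2 in MRL (9.28%), 2 on day 5 in C57 (8.53%) and 4 in MRL (14%), and 0 on day 0 in C57 (background 0%) or MRL (0.0304%).

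**Figure D2:**
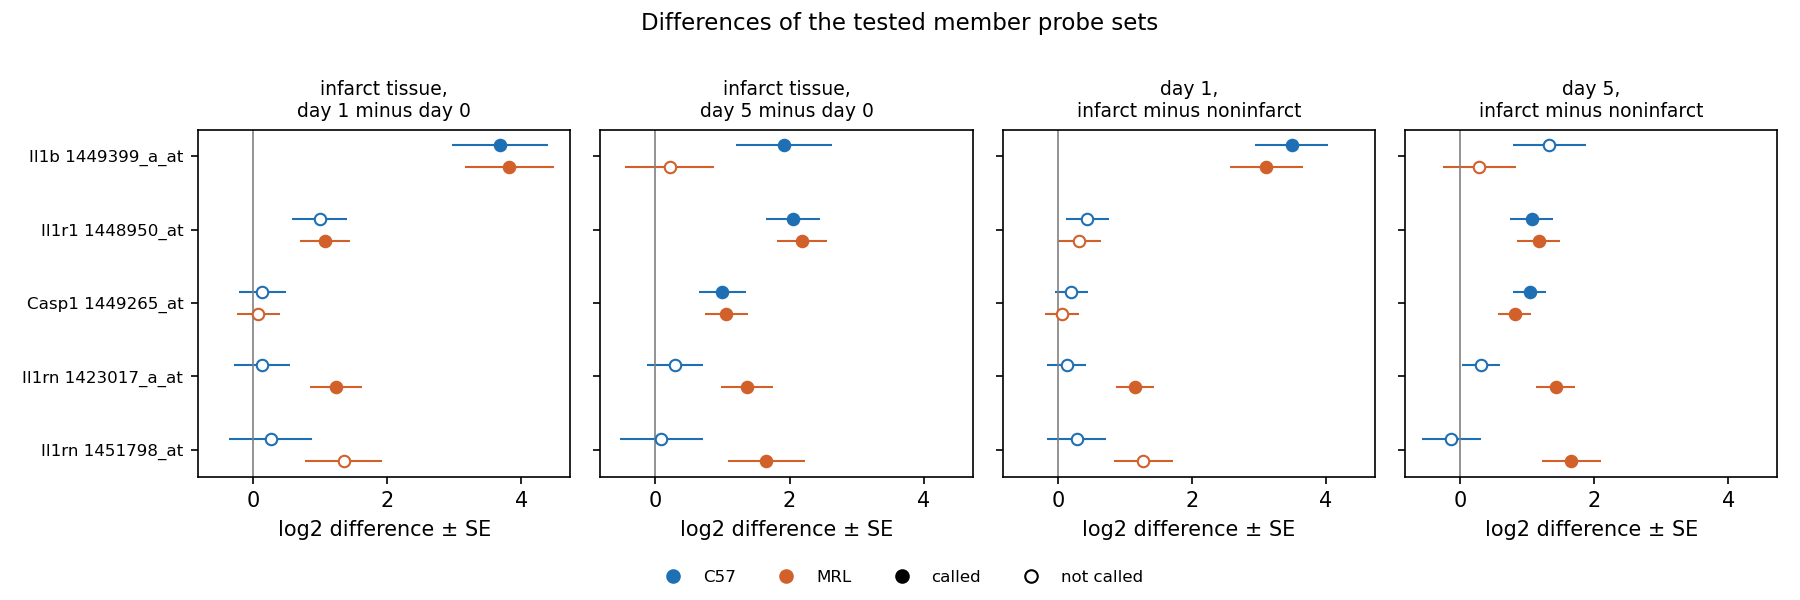
Log2 differences (horizontal axis, bars are SE) of the 5 tested probe sets after infarction and between regions, C57 in blue and MRL in orange, filled where called. The Il1b change is 3.68 and 3.82 on day 1, and both Il1rn probe sets have called differences in MRL and none in C57.

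No member differed between the strains by the test: 0 of 21 tests were called, with 5 at an unadjusted p under 0.05, and 0 of 14 tests of strain by infarction, with 0 at an unadjusted p under 0.05. The MRL rise of Il1rn without a called C57 change is therefore not by itself a strain difference. On day 1 Il1rn 1423017_a_at was higher in MRL infarct tissue by 1.11 ± 0.39 (unadjusted limma p 0.0093, adjusted p 0.27) and on day 5 by 1.08 ± 0.39 (unadjusted p 0.011, adjusted p 0.45). Il1rn 1451798_at was higher by 1.51 ± 0.57 on day 5 (unadjusted p 0.016, adjusted p 0.53). Without MRL day 5 infarct replicate 3, the array of that group that stands apart, both day 5 differences were called: 1.59 (adjusted p 0.003) and 2.10 (adjusted p 0.034). The difference in the change from day 0 to day 5 was 1.08 for Il1rn 1423017_a_at (adjusted p 1.0).

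Infarct Il1b on day 5 was lower in MRL, at 3.98 to 4.81 against 4.73 to 8.24 in C57, by 1.81 ± 0.66 (unadjusted limma p 0.013, adjusted p 0.48), and noninfarct Il1b on day 5 was 3.80 to 4.09 against 4.31 to 5.51, with no overlap and no call (unadjusted p 0.031, adjusted p 0.44). On day 1 the strains' means of infarct Il1b differed by 0.03 ± 0.66. Il1r1 and Casp1 differed between the strains by at most 0.42 on any day. The share of all probe sets called between the strains was small: in infarct tissue 1.07% on day 0, 0.997% on day 1 and 0.686% on day 5, and in noninfarct tissue 1.8%, 2.77% and 1.25%. For strain by infarction it was 0.0468% for the change to day 1 and 0.156% for the change to day 5 in infarct tissue, and 0.0081% for each in noninfarct tissue.

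Among other ligands, receptors and decoys of the family, 14 genes of 15 had a probe set and 3 were tested, Il1r2, Il33 and Il18bp. The probe sets of Il1a, Il18, Il1rl2, Sigirr, Il18r1, Il18rap, Il1rapl2, Il1f5, Il1f6, Il1f8 and Il1f9 were above the array median on 0 of 46 arrays, so that of the agonists Il1a and Il1b only Il1b exceeded it on any array. Il18bp, which binds interleukin 18, was not called in any comparison.

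Il1r2, the decoy receptor, followed Il1b in time and differed between the strains. It read 4.24, 3.92 and 4.16 on C57 day 0 and 7.78, 7.35, 7.96 and 7.67 on day 1 in infarct tissue, and 3.91, 4.22, 4.10 and 4.15 and then 4.34, 5.26, 7.35 and 5.71 in MRL. On day 5 it was back at 4.10 to 4.21 in C57 and 3.80 to 4.16 in MRL. Every C57 day 1 array lay above every MRL day 1 array, the highest MRL one, replicate 3, by a small gap.

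Il1r2 rose by 3.59 ± 0.40 in C57 by day 1 and by 1.57 ± 0.37 in MRL (limma adjusted p 3.2e-06 and 0.0053). Its probe set was above the array median on 12 of 46 arrays, all of day 1, so it entered the tests through the day where it was high. Its calls over days are therefore no independent evidence of a change. MRL lay below C57 on day 1 by 2.03 ± 0.37 (MRL minus C57 -2.03, adjusted p 0.0059), a call that held without any single array, beside a background of 0.997%. The test of strain by infarction, -2.02 ± 0.54, was not called (adjusted p 0.69). Without MRL day 1 infarct replicate 3 the MRL rise was 1.00 (adjusted p 0.005) and the strain by infarction difference was -2.58 (adjusted p 0.00057). That replicate also had the highest MRL Il1b value, 9.88.

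The neutrophil markers S100a8 and S100a9 rose with Il1b and Il1r2 in infarct tissue. Of 10 neutrophil genes with a probe set, 2 were tested, S100a8 and S100a9, and both rose by day 1 in each strain. Cxcr2, Csf3r and Mmp8 were above the median on 1, 1 and 2 arrays, and Ngp, Camp, Ltf, Elane and Mpo on no array. At their highest S100a8 and S100a9 read 11.22 and 11.12, and every other gene of the list at most 5.27. High sums over the list therefore mainly reflect these 2 genes. The summed linear intensity of the 10 was 72.7 to 83.7 on C57 day 0, 3151 to 4664 on day 1 and 80.6 to 141.9 on day 5 in infarct tissue. In MRL it was 72.1 to 77.2, 1005 to 2979 and 71.5 to 143.7. The day 1 ranges did not overlap between the strains, C57 being higher as for Il1r2, although 0 of the 2 tested genes was called between the strains. In noninfarct tissue both tested markers were also called higher by day 1 in each strain, beside 2.71% and 0.786% of all probe sets called higher. Their median rises were 4.29 and 3.20, and the list sums were 217.6 to 740.9 in C57 and 116.4 to 500.0 in MRL. Noninfarct Il1b (-0.02 and 0.60) and Il1r2 (0.46 and 0.34) were not called by day 1. The part of neutrophil number in the values of Il1b and Il1r2 was not tested.

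**Figure D3:**
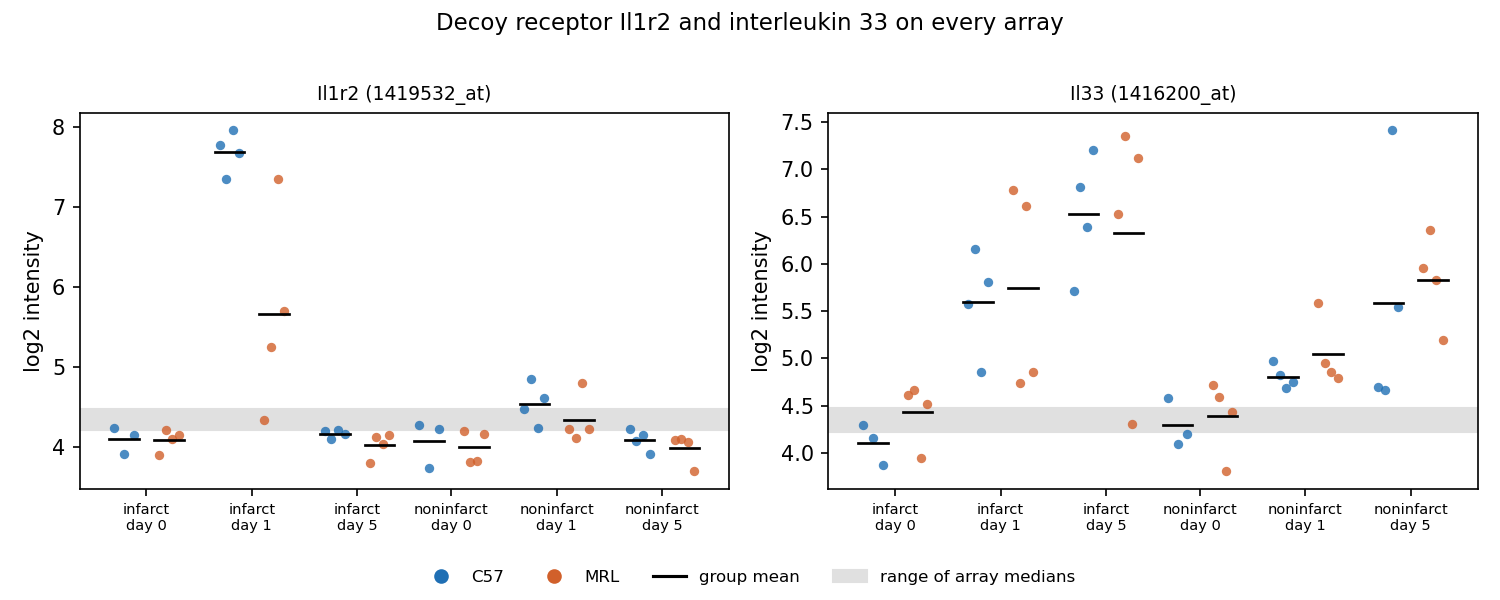
Log2 intensity (vertical axis) of Il1r2 and Il33 on each array by region and day, C57 in blue and MRL in orange, with group means as black bars and the range of array medians in grey. Il1r2 is high on day 1 infarct arrays, at 7.35 to 7.96 in C57 and 4.34 to 7.35 in MRL, and Il33 is highest on day 5.

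Il33, the ligand of Il1rl1 released by damaged stromal cells, was called higher on day 5. Infarct values were 4.29, 4.15 and 3.87 on C57 day 0 and 5.72, 6.81, 6.39 and 7.21 on day 5, and 4.62, 4.66, 3.94 and 4.51 and then 6.52, 7.35, 4.31 and 7.12 in MRL. MRL day 5 replicate 3 lay within the day 0 range. On day 1 the values were 5.58, 6.16, 4.85 and 5.81 in C57 and 6.78, 4.74, 6.62 and 4.86 in MRL, all above every day 0 array of their strain. That day 1 difference was 1.49 ± 0.59 and 1.31 ± 0.55 and not called (adjusted p 0.088 and 0.089), but was without MRL day 5 infarct replicate 3 (adjusted p 0.023 and 0.024). From day 1 to day 5 it was 0.93 and 0.58, not called (adjusted p 0.19 and 0.43); the MRL one was called without that array (1.25, adjusted p 0.031). The rise by day 5 was 2.43 ± 0.59 in C57 and 1.89 ± 0.55 in MRL (limma adjusted p 0.0028 and 0.0076). In noninfarct tissue it was 1.29 ± 0.45 and 1.45 ± 0.41 (adjusted p 0.045 and 0.016). The MRL noninfarct call ended without MRL day 5 replicate 2 or day 0 replicate 3 (adjusted p 0.064 and 0.054). Without C57 day 5 noninfarct replicate 3, which stands apart at 7.42, the C57 noninfarct rise was 0.68 and not called (adjusted p 0.14); it also ended without any one of 16 other arrays of that fit (adjusted p 0.051 to 0.13).

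Macrophage and fibroblast markers were higher on day 5, as were Il1r1, Casp1 and Il33. In infarct tissue all 11 macrophage markers and all 7 fibroblast markers were called higher on day 5 than on day 0 in each strain. Of 7 cardiomyocyte markers 5 were called lower in C57 (6 without the arrays that stand apart) and 6 in MRL. Over all tested probe sets 23.4% were called higher and 19.3% lower in C57, and 23.6% and 23.4% in MRL. The summed macrophage intensity in infarct tissue was 1654 to 2166 on day 0, 1129 to 5489 on day 1 and 14340 to 27200 on day 5 in C57, and 1080 to 1413, 1607 to 5416 and 5256 to 32400 in MRL. The summed fibroblast intensity was 4816 to 6918, 4053 to 7502 and 43100 to 58990 in C57, and 6141 to 7402, 4400 to 7820 and 27340 to 58960 in MRL. MRL day 5 infarct replicate 3 had the lowest sum of its group on both lists, as it had the lowest Il1r1, Casp1 and Il1rn values. From day 0 to day 1 in infarct tissue 1 macrophage marker was called higher in C57 and 5 in MRL. Of all probe sets 9.39% and 10.4% were called higher, and 15.5% and 21.5% in either direction. Without the arrays that stand apart 3 and 6 macrophage markers were called higher, beside 20.8% and 27.4% of all probe sets called in either direction. The fibroblast markers had median changes of -0.20 and -0.30 by day 1. Calls went both ways: without the arrays that stand apart 2 of the 7 were called higher and 1 lower in C57, and 1 and 1 in MRL. The part of these cell types in the changes was not tested. Of 7 mast cell markers 2 were tested in infarct tissue, and none was called. Of 7 markers of T lymphocytes and innate lymphoid cells, Il7r alone was tested. Without the arrays that stand apart, Il7r was called higher in infarct tissue on day 5 than on day 0, by 1.6 in C57 and 2.43 in MRL. In that fit 45.7% and 52.6% of all probe sets were called in either direction. By day 1 its changes of 0.03 and 0.02 were not called.

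**Figure D4:**
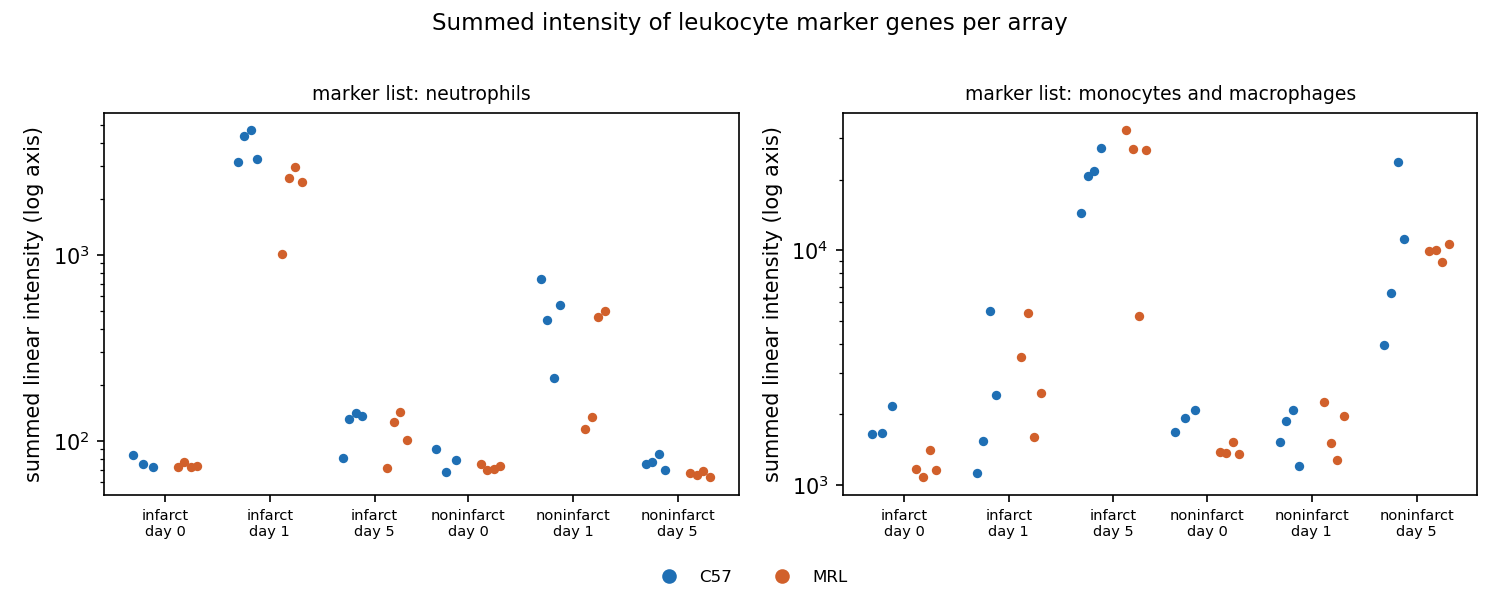
Summed linear intensity per array (vertical log axis) of the neutrophil and the monocyte and macrophage marker lists by region and day, C57 in blue and MRL in orange. Neutrophil sums peak on day 1 at up to 4664 and macrophage sums in infarct tissue on day 5 at up to 32400, and 1 array of MRL day 5 infarct and 1 of C57 day 5 noninfarct tissue lie away from their groups.

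Most tested genes known to be switched on by interleukin 1 were called higher in infarct tissue on day 1. Of 23 genes on the list 16 were tested. From day 0 to day 1 in infarct tissue 13 were called higher and 0 lower in C57, and 11 and 0 in MRL. The background was 15.5% and 21.5% of all probe sets. Without the arrays that stand apart 14 and 12 were called higher. The median change over the tested list genes was 3.84 and 2.84, against 0.01 and 0.00 over all probe sets tested. The list was chosen with earlier results of these data known. A gene at background on day 0 can enter the tests only through the arrays where it is high. The counts and medians are therefore no independent evidence of a joint rise. Lcn2, an iron-binding neutrophil and epithelial protein, rose by 8.20 ± 0.36 in C57 and 6.44 ± 0.33 in MRL (limma adjusted p 4.1e-12 and 1.1e-10). The neutrophil-attracting chemokine Cxcl2 rose by 6.93 and 4.81, Cxcl1 by 5.84 and 4.75, and Socs3, a feedback inhibitor of cytokine signalling, by 5.15 and 4.74 (adjusted p from 3e-06 to 0.00084 for these 3 genes in MRL).

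From day 1 to day 5 13 of the 16 response genes were called lower in C57 and 10 in MRL. Of all probe sets 15.7% and 13.8% were called lower. In each strain 1 response gene was called higher (2 in MRL without the arrays that stand apart), beside 18.5% and 16.3% of all probe sets. As for day 1, these counts are no independent evidence of a joint change. On day 5 6 were called above day 0 in C57 and 7 in MRL, beside 23.4% and 23.6% of all probe sets called higher. In either direction 42.7% and 46.9% of all probe sets were called. The list medians were 1.45 and 0.86. Without the arrays that stand apart 7 and 7 were called above day 0. These day 5 counts and medians carry the same limit. Cxcl2 was back within 0.19 of day 0 in C57 and 0.10 in MRL, whereas Socs3 remained higher by 3.07 and 2.74. Between the strains Lcn2 was lower in MRL on day 1 infarct tissue (-1.62 ± 0.33, adjusted p 0.015), a call that ended without any one of MRL day 1 replicates 1 and 2 or C57 day 1 replicates 2 and 4 (adjusted p 0.052 to 0.066). Many of these genes also respond to other cytokines, and the list does not single out interleukin 1.

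Inflammasome and processing genes had more calls on day 5 than on day 1, as had all probe sets. Of 19 genes 14 had a probe set and 8 were tested. From day 0 to day 1 in infarct tissue 1 was called higher and 0 lower in C57, and 1 and 1 in MRL (15.5% and 21.5% of all probe sets). From day 0 to day 5, when 42.7% and 46.9% of all probe sets were called, it was 5 higher and 1 lower in C57. In MRL it was 4 and 1 (5 and 2 without the arrays that stand apart). The list medians were 1.53 and 1.22, against 0.00 and -0.05 over all probe sets. This list too was chosen with earlier results known, and a gene at background enters the tests only through arrays where it is high. Its counts and medians are no independent evidence of a joint rise. Serpinb1a, an inhibitor of neutrophil proteases and inflammatory caspases, was higher on day 5 by 5.54 ± 0.64 in C57 and 5.31 ± 0.60 in MRL. The channel gene Panx1 was higher by 2.76 and 2.64. Casp8, a caspase of cell death and cytokine processing, was higher by 2.48 and 1.94 on day 5 and already by 1.48 and 1.64 on day 1 (limma adjusted p at most 0.0032 for these genes).

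Pycard, the adaptor that links inflammasome sensors to Casp1, rose by day 5 by 1.94 ± 0.48 in C57 and 3.47 ± 0.44 in MRL (limma adjusted p 0.003 and 5.3e-06) by its probe set 1417346_at, which gave lower values in MRL from day 0. It read 5.96, 5.59 and 5.05 in the day 0 infarct region of C57 and 3.20, 2.65, 3.25 and 2.67 in that of MRL. In the noninfarct region it read 5.55, 5.64 and 4.58 against 2.71, 2.64, 3.60 and 3.39. The strains did not overlap in either region of unoperated hearts. The difference, MRL minus C57, was -2.59 ± 0.48 and -2.17 ± 0.31 (adjusted p 0.0052 and 0.00027), and in noninfarct tissue -1.92 on day 1 and -1.27 on day 5 (adjusted p 0.00032 and 0.028). In infarct tissue -1.50 on day 1 and -1.06 on day 5 were not called (adjusted p 0.13 and 0.7). The day 0 infarct call ended without C57 replicate 1 (adjusted p 0.053), and the day 5 noninfarct call without C57 replicates 2 or 4 or MRL replicates 2 or 3 (adjusted p 0.09 to 0.11). A second Pycard probe set, 1417347_at, read 4.11 to 4.58 in C57 and 3.96 to 4.16 in MRL in the day 0 infarct region, so that the strains overlapped. From day 0 to day 5 its infarct mean went from 4.27 to 3.88 in C57 and from 4.09 to 3.85 in MRL, all below the highest array median. The 2 probe sets thus disagree on the direction of the day 5 change as well as on the strain difference, and neither is settled for the gene. Whether the strains differ in sequence under the probes of Pycard, Myd88 or Il1rn was not tested.

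Of 26 receptor signalling genes 21 had a probe set and 16 were tested in infarct tissue. From day 0 to day 1 3 were called higher and 0 lower in C57, and 5 and 2 in MRL (5 and 4 without the arrays that stand apart). To day 5 it was 3 and 1 in C57, and 3 and 3 in MRL (4 and 2 without the arrays that stand apart). The background was 15.5% and 21.5% on day 1 and 42.7% and 46.9% on day 5, above the list's share on day 5 in each strain. The list medians were 0.29 and 0.05, then 0.33 and -0.07. Nfkbiz, an inducible partner of NF-kappa B, rose by 3.20 ± 0.75 in C57 and 2.71 ± 0.69 in MRL by day 1 (limma adjusted p 0.0062 and 0.0093). Relb, an NF-kappa B subunit, rose in MRL by 1.74 ± 0.46 (adjusted p 0.011), with 0.88 ± 0.50 in C57. Ecsit, a signalling adaptor also needed for assembly of mitochondrial complex I, fell by 1.88 in C57 and 2.11 in MRL by day 5 (adjusted p 0.00092 and 0.00012).

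Myd88, the adaptor directly downstream of Il1r1, was called higher after infarction in C57 and not in MRL. In infarct tissue the strain difference was called on day 1 and day 5. Its probe set was above the array median on 5 of 46 arrays, all of them C57 infarct arrays (2 on day 1 and 3 on day 5). It entered the tests through the groups where it is high, and all MRL values are near background. Its calls over days and between the strains are therefore no independent evidence of a change or of a strain difference. In infarct tissue it read 2.65, 2.64 and 2.58 on C57 day 0, 3.08, 3.49, 4.53 and 5.35 on day 1 and 3.76, 4.70, 4.44 and 4.73 on day 5. In MRL it read 2.39, 2.49, 2.48 and 2.49, then 2.42, 2.48, 2.63 and 2.63, then 2.60, 2.65, 3.19 and 2.60. In infarct tissue no C57 array overlapped with an MRL array of the same day after infarction, whereas in noninfarct tissue the ranges overlapped on day 1 (2.64 to 3.48 against 2.38 to 2.66). The strains did not overlap on day 0 either, in the infarct region (2.585 to 2.655 against 2.392 to 2.493) or the noninfarct region (2.618 to 2.666 against 2.376 to 2.485). Non-overlap is thus not particular to the days after infarction.

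Myd88 rose by 1.49 ± 0.36 by day 1 and 1.78 ± 0.36 by day 5 in C57 (limma adjusted p 0.0072 and 0.00067), and the MRL changes were 0.08 and 0.29 ± 0.33 (adjusted p 0.89 and 0.48). MRL minus C57 was -1.57 ± 0.33 on day 1 and -1.65 ± 0.33 on day 5 (adjusted p 0.018 and 0.014). The test of strain by infarction was not called (-1.41, adjusted p 1.0, and -1.49, adjusted p 0.71). The day 1 strain call ended without MRL replicates 1 or 2 or C57 replicate 3 (adjusted p 0.052 to 0.057), and the day 5 call without MRL replicates 1, 2 or 4 or C57 replicates 2 to 4 (adjusted p 0.057 to 0.082). With an offset of 32 added before log2 the differences were -0.44 and -0.47 and not called (adjusted p 0.14 and 0.16). Myd88 has 1 probe set here, so no other probe set checks the MRL level.

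**Figure D5:**
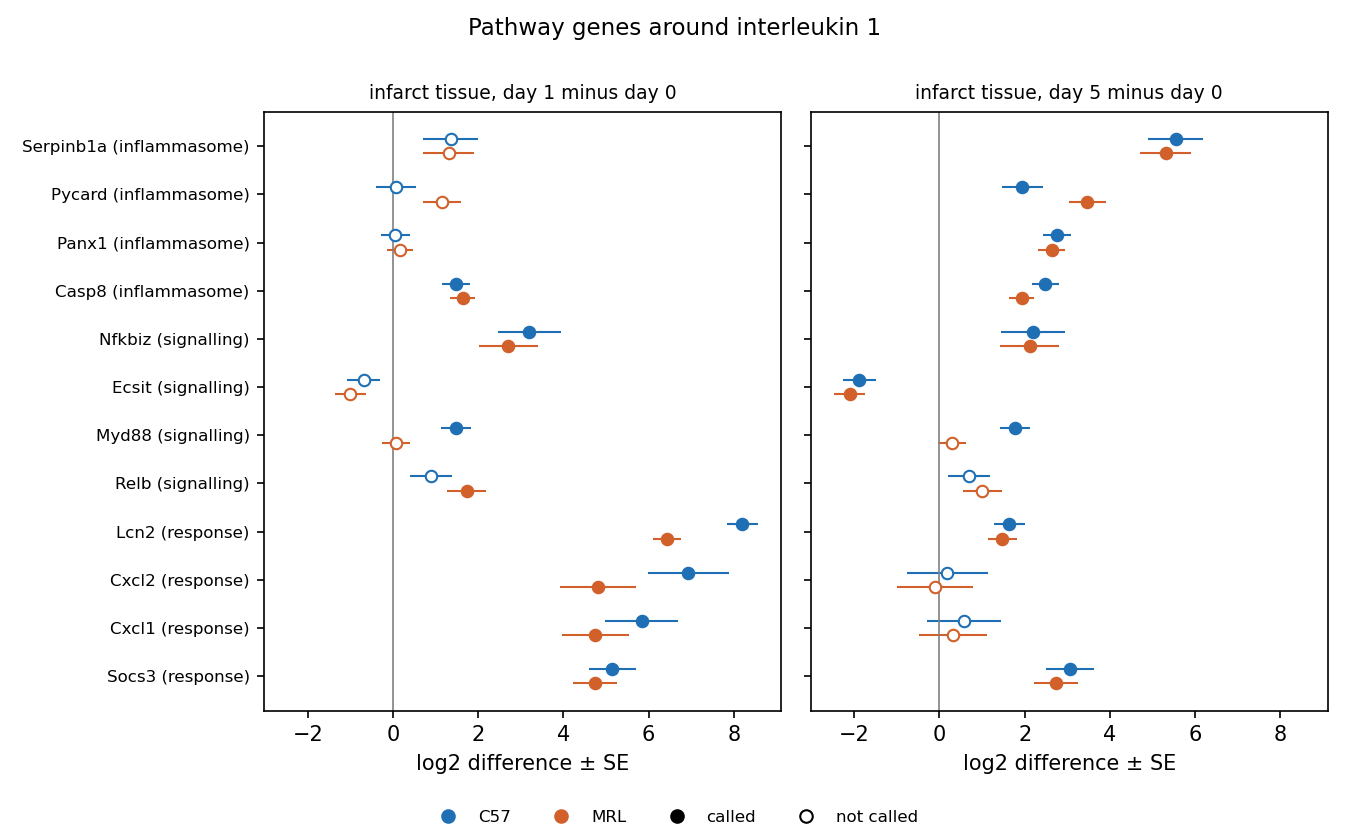
Log2 change from day 0 in infarct tissue (horizontal axis, bars are SE) on day 1 and day 5 for 4 called genes of each pathway list, C57 in blue and MRL in orange, filled where called. The response genes change most on day 1, with Lcn2 at 8.20 and 6.44, and Serpinb1a, Pycard and Panx1 on day 5.

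The genes most like each member over the 12 group means, among 7760 genes, were as follows, as a description over means that share arrays. For Il1b they were Ptgs2 (Pearson r 0.985), the cyclooxygenase of prostaglandin synthesis, Slfn4 (0.984) and Il6 (0.983). For Casp1 they were Pag1 (0.997), Cxcl13 (0.985) and Tifa (0.985). For Il1r1 they were the ribosomal protein gene Rps3 (0.989), Edem1 (0.987) and Fau (0.985). For Il1rn 1423017_a_at they were Sart3 (0.906), Hexim1 (0.905) and Atf6b (0.902), lower than for the other 3 members.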

How the data were processed

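Each sample's RNA went onto its own Affymetrix MOE430A array. The deposited table gives 1 linear intensity for every probe set and array, which, per the submitters' processing notes, the authors computed with GCRMA (version not given in the sources used here). Of 22690 probe sets, 64 controls were left out, 20380 had 1 symbol, 691 several and 1555 none. Log2 was taken without a pseudocount (smallest value 1.03). limma 3.58.1 in R 4.3.3 (lmFit, eBayes, two-sided, Benjamini-Hochberg) fitted 1 mean per group on the 23 arrays of a region, or on 46 arrays for regions, in 28 comparisons. A probe set was tested if above its array's median on at least 3 arrays: 12834 in infarct, 12344 in noninfarct tissue, 13138 over both. The fit was tested on simulated data.

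Precision is limited by 3 or 4 arrays per group; p-values measure the spread between these samples. Comparisons with a shared day 0 or day 1 group share its deviations. The members, pathway lists and marker lists were chosen with earlier results of these data known. All members are described; of each pathway list other than the family, up to 4 called genes with the largest infarct change from day 0 are named, and 3 genes per member by likeness. A list gene is represented by its brightest tested probe set; the second Pycard probe set was looked at after the values of the first were seen, as were the Il7r, S100a8 and S100a9 counts named. Alternatives were no filter, quantile normalization, centred arrays, an offset of 32, trend and robust moderation, other arrays in the fit, each array left out, the 2 arrays that stand apart left out, and the replicate number as a block; list counts and single day comparisons without those 2 arrays were added after seeing the data. Promoters and gene order are from RefSeq, GRCm38.p6.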

Additional observations from a re-analysis of the deposited data

Results flagged for a closer look

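Among 90 member probe sets by groups of 4 arrays, 5 held an array far from the others by Dixon's test; chance flags about 1 in 20 groups. All 5 belong to Il1rn. Probe set 1451798_at read 6.06 on MRL day 1 infarct replicate 3 against 3.14 to 3.40 on the other 3 arrays; the same array had the highest Il1b and Il1r2 values of its group. The same probe set read 3.76 on C57 day 5 noninfarct replicate 3, against 2.59 to 2.69; that array is one of the 2 that stand apart. Probe set 1423017_a_at read 3.26 on MRL day 1 noninfarct replicate 4 against 3.02 to 3.04. Probe set 1425663_at, at background throughout, read 3.55 on MRL day 0 infarct replicate 2 and 3.23 on MRL day 1 infarct replicate 1.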

How the results depend on the processing

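No result changed direction while called, under any alternative. Of the member calls, infarct tissue over days (17) gave 12 to 19 with single arrays left out and 11 with an offset of 32. Noninfarct tissue over days (2) gave 1 to 4 with single arrays left out, 1 without C57 day 0 replicates 2 or 3 and 4 without C57 day 5 replicate 1; it gave 4 with no filter, the 2 added being Il1rn 1425663_at, not tested otherwise, and 1 with all 46 arrays in the fit. Infarct versus noninfarct tissue (9) gave 6 to 10 with single arrays left out and 1 when fitted on the arrays of that strain and day alone, which are fewer. MRL versus C57 (0) gave 0 to 2 with single arrays left out, 2 without the arrays that stand apart (both Il1rn probe sets on day 5) and 2 with all 46 arrays in the fit (Il1rn 1423017_a_at, adjusted p 0.029 on day 1 and 0.047 on day 5). Strain by infarction gave 0 throughout. With all 46 arrays the Il1r2 difference of strain by infarction was called (adjusted p 0.038).

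The replicate numbers did not establish pairs across regions: of 23 same-numbered pairs 16 had deviations correlated above 0.1 (range -0.462 to 0.768) and 13 correlated best with their own number. With the replicate block the member calls were 15, 2, 11, 0 and 0 for the families in the order above; Il1b in C57 infarct tissue from day 0 to day 5 (1.71, adjusted p 0.061) and Il1r1 in MRL infarct tissue from day 0 to day 1 (1.07, adjusted p 0.065) lost their call. Quantile normalization ended no call of a named gene. With no filter 5 member calls were lost: Il1b in C57 infarct tissue from day 0 to day 5 (adjusted p 0.069) and day 1 to day 5 (0.054), Il1rn 1423017_a_at (0.055) and Il1r1 (0.089) in MRL infarct tissue from day 0 to day 1, and Il1r1 between the regions in C57 on day 5 (0.061). Calls were also added with no filter, for infarct tissue from day 1 to day 5, all lower and all at background. Il1rap 1449585_at differed by -0.368 in C57 and -0.405 in MRL (limma adjusted p 0.042 and 0.04). Il1rap 1421843_at differed by -0.334 in MRL (adjusted p 0.039), and Il1rn 1425663_at by -0.346 in C57 (adjusted p 0.028). Without the arrays that stand apart no member call was lost and 6 were added, given beside their results. Levels near the array median limit Casp1, Il1rn, Il1rap and Myd88. The cause of the other changes was not tested.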
